A study of Drosophila melanogaster with 6 samples.

Results

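A list of 39 genes of RNA interference and the small RNA pathways was followed in cultured Drosophila S2 cells with and without depletion of ROW, a zinc finger protein found in complexes with the chromatin protein HP1c. The genes were chosen by name, from the small interfering RNA (siRNA), microRNA (miRNA) and Piwi-interacting RNA (piRNA) pathways, and each was read from the brightest probe set that carried its symbol alone. Of 39 genes, 35 were measured, among 11982 genes on the array: 11 of 12 siRNA genes, 4 of 6 miRNA genes and 20 of 21 piRNA genes. AGO2, AGO1, Dcr-1 and arx are not analysed here, as none had a probe set under its symbol alone.

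Total RNA was measured on 6 Affymetrix Drosophila Genome 2.0 arrays, 3 labelled control and 3 labelled ROW RNAi. S2 is an established line from embryos that resembles hemocytes, which are fly blood cells. The control cells are called wild type, and ROW RNAi was done by soaking for 96 h in a double-stranded RNA that matches row. All 6 samples share the line, the medium and an extraction and amplification protocol. The labels attach 1 treatment text, on the soak against ROW, to all 6 samples, call the controls wild type, and do not say whether these were soaked in any other double-stranded RNA. Effects of losing ROW and of the soak itself therefore cannot be told apart. RNA interference lowers a transcript and does not delete the gene. Nothing in the labels ties the arrays of a group to separate cultures. The p-values therefore reflect spread among these arrays alone, which may be technical.

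In the siRNA pathway, long double-stranded RNA is cut by the RNase III enzyme Dicer-2, loaded with the help of the double-stranded RNA binding protein R2D2 into Argonaute-2, and used to cleave matching transcripts. It is the machinery through which soaking S2 cells in double-stranded RNA silences a gene, and in flies it also acts against viruses. In the miRNA pathway Drosha and Pasha trim primary transcripts in the nucleus, Dicer-1 with Loquacious cuts the hairpin, and Argonaute-1 represses target messages. The piRNA pathway uses the Piwi clade of Argonaute proteins, needs no Dicer, and is known mainly from the ovary and testis, where it silences transposable elements.

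The targeted transcript was lower on all 3 ROW RNAi arrays. The brightest of 3 row probe sets read 10.4, 10.6 and 10.5 on the log2 scale in control and 9.04, 8.91 and 8.91 under ROW RNAi, which left 33.5% of the control level (limma adjusted p = 0.0023). The other row probe sets left 16.4% and 15.9% of it, with log2 fold changes of −2.61 and −2.66. Array pairs correlated with r between 0.987 and 0.998 across probe sets, which are not independent replicates. On the first principal component ROW RNAi replicates 1 and 3 lay apart, with scores of 42.7 and 20.8. ROW RNAi replicate 2 scored −19.5, among the controls (−3.69, −26.5 and −13.7). ROW RNAi replicates 1 and 3 also had the highest array medians, 5.01 and 4.94 against 4.86 to 4.92 on the other arrays. Of the 8 hemocyte markers, all measured, 1 rose (Sr-CI) and 1 fell (He), where 0.405% and 0.757% of all tested probe sets did. They stood at 153% and 62.1% of control (adjusted p = 0.022 and 0.010 in limma). At an unadjusted p under 0.05 were 5 of the 8, where 13.8% of all tested probe sets were. Sr-CI and eater were higher, and He, Pxn and NimC1 lower. In the same 5 the groups did not overlap, as in 21.4% of all tested probe sets. All 8 markers were above background on every array, background being 3.39, the 95th percentile of 17 tag control probe sets. These controls had medians of 2.34 and 2.54 on ROW RNAi replicates 1 and 3, and 2.64 to 2.91 on the other arrays. The part of such differences between arrays in the first component was not tested.

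Of the 35 genes, 1 rose under ROW RNAi and 0 fell at an adjusted p of 0.05 in limma, against 1.16% of all 18769 probe sets tested (0.405% higher and 0.757% lower). At an unadjusted p under 0.05 there were 6, where 13.8% of all probe sets were, 2 of them higher and 4 lower. The 1 gene that rose was cuff, a piRNA gene. Over the 35 genes the median log2 fold change was −0.06, with 22 below 0, beside −0.03 and 58.3% over all tested probe sets. A count of 1 in 35 gives no result about the set as a whole. In a culture, fewer cells that express a gene and less of its RNA per cell cannot be told apart.

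**Figure D1:**
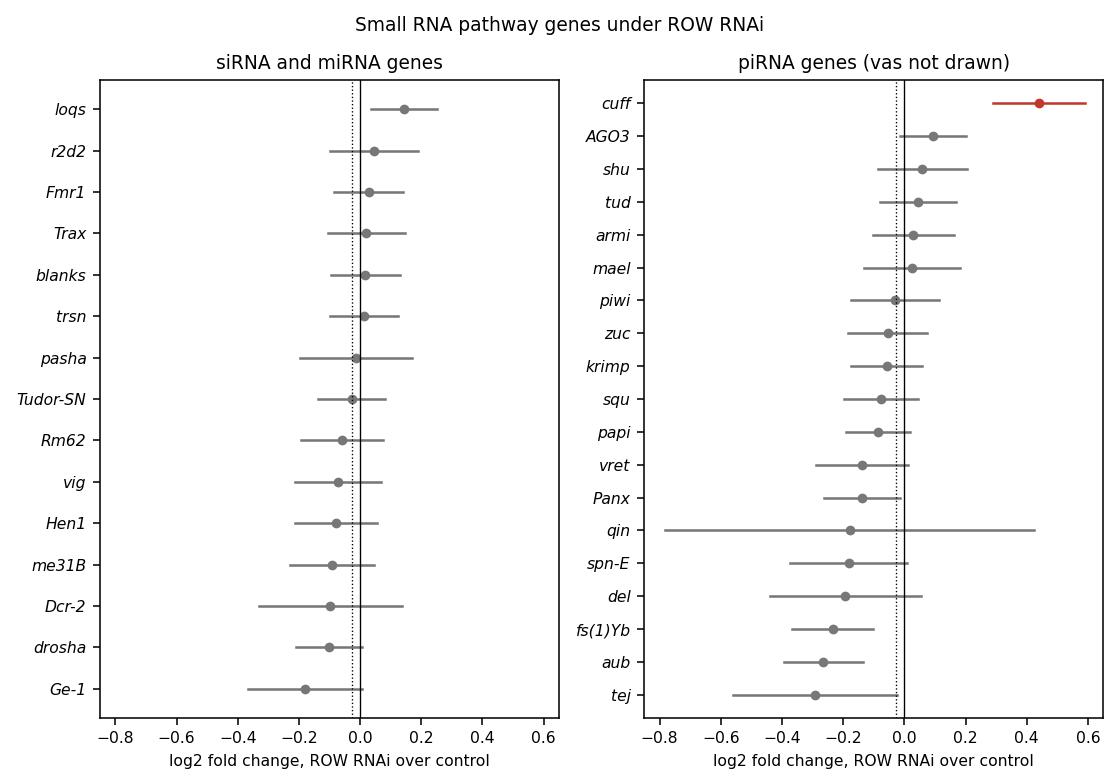
Log2 fold change of ROW RNAi over control for the siRNA and miRNA genes (left) and the piRNA genes (right), as limma estimates with 95% intervals from 3 arrays a group; the dotted line is the median of all tested probe sets, −0.03, and red marks an adjusted p below 0.05. Only cuff is red, at 0.44; vas, at 1.72 with an interval from −0.36 to 3.79, is outside the scale and is not drawn.

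No gene of the siRNA pathway was found to differ. None of the 11 measured passed the test (limma adjusted p from 0.26 to 0.91). At an unadjusted p under 0.05 there was 1, where 13.8% of all tested probe sets were. Of the 11, 6 lay above 0 and 5 below, and their log2 fold changes ran from −0.10 to 0.14. On the brightest probe sets the 95% intervals of all 11 lay between −0.33 and 0.25 on the log2 scale. A fall of more than 1.26-fold or a rise of more than 1.19-fold lies outside each of these intervals, taken alone. The bound holds for these probe sets with the values as deposited. A dimmer second Trax probe set had an interval from −0.54 to 0.44. Median centring of the arrays moved Dcr-2 to −0.14 (SE 0.10). A p that misses the threshold does not show equal levels.

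Dcr-2, which encodes the Dicer that makes siRNAs, read 10.47, 10.50 and 10.50 in control and 10.56, 10.41 and 10.21 under ROW RNAi, in replicate order. The ROW RNAi arrays lay on both sides of the controls, and their SD was 0.18 against 0.02 in control. The log2 fold change was −0.10 (SE 0.09, limma adjusted p = 0.66). r2d2, whose product hands the duplex from Dicer-2 to Argonaute-2, read 9.79, 9.68 and 9.78 in control and 9.76, 9.87 and 9.76 under ROW RNAi. These groups overlapped too, with a log2 fold change of 0.05 (SE 0.06, adjusted p = 0.74).

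loqs, whose protein isoforms partner Dicer-1 in miRNA processing and Dicer-2 in siRNA production, was 1 of 11 siRNA genes without overlap between groups. Over all tested probe sets the groups did not overlap in 21.4%, with 7.00% higher. loqs read 10.09, 10.04 and 10.06 in control and 10.23, 10.19 and 10.20 under ROW RNAi, and no other siRNA gene separated. All 3 ROW RNAi arrays lay above all controls, by a log2 fold change of 0.14 (SE 0.04), which did not pass (unadjusted p = 0.018, limma adjusted p = 0.26). Its isoforms are not analysed here.

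Hen1, the methyltransferase that protects the 3′ ends of siRNAs and piRNAs, had a log2 fold change of −0.08 (SE 0.05). trsn and Trax encode translin and its partner, which form C3PO, an endonuclease that helps to activate the siRNA effector complex. Their log2 fold changes were 0.01 and 0.02, and a dimmer second Trax probe set gave −0.05 (SE 0.20), with ROW RNAi arrays from 5.95 to 6.75 around controls from 6.36 to 6.44. blanks, which encodes a double-stranded RNA binding protein known from the testis, read 12.70 ± 0.03 in control and 12.72 ± 0.03 under ROW RNAi (log2 mean ± SD, n = 3 arrays each).

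Proteins found with the siRNA effector complex in S2 cells made up the rest of the group. Tudor-SN, a staphylococcal nuclease and Tudor domain protein, stood at −0.03 (SE 0.04), vig at −0.07 (SE 0.06) and the RNA helicase gene Rm62 at −0.06 (SE 0.05). Fmr1, the fly counterpart of the fragile X gene, gave 0.03 (SE 0.05) on its brightest probe set and −0.12 (SE 0.06, limma adjusted p = 0.42) on another, so its probe sets differed in sign.

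The 4 measured miRNA genes all lay below 0, and none passed the test (limma adjusted p from 0.37 to 0.95). At an unadjusted p under 0.05 there were 0, where 13.8% of all tested probe sets were. The median log2 fold change of the 4 was −0.10. In 3 of the 4 every ROW RNAi array lay below every control array, where 14.4% of all tested probe sets did.

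drosha, which encodes the nuclear RNase III enzyme of the pathway, read 10.08, 10.12 and 10.09 in control and 10.01, 10.00 and 9.98 under ROW RNAi. The groups did not overlap, and the log2 fold change was −0.10 (SE 0.04, limma adjusted p = 0.39). pasha, whose product binds primary transcripts beside Drosha, read 8.97, 9.11 and 9.16 against 9.05, 9.16 and 9.00. Its groups overlapped, at a log2 fold change of −0.01 (SE 0.07).

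me31B and Ge-1 encode a DEAD-box helicase and a scaffold of the decapping complex, both of processing bodies, where silenced messages are held and decapped. me31B read 12.45, 12.47 and 12.53 in control and 12.43, 12.43 and 12.31 under ROW RNAi (log2 fold change −0.09, SE 0.06). Ge-1 read 10.53, 10.55 and 10.56 against 10.45, 10.43 and 10.22, with a log2 fold change of −0.18 (SE 0.07, adjusted p = 0.37 in limma). In both genes ROW RNAi replicate 3 was the lowest array.

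**Figure D2:**
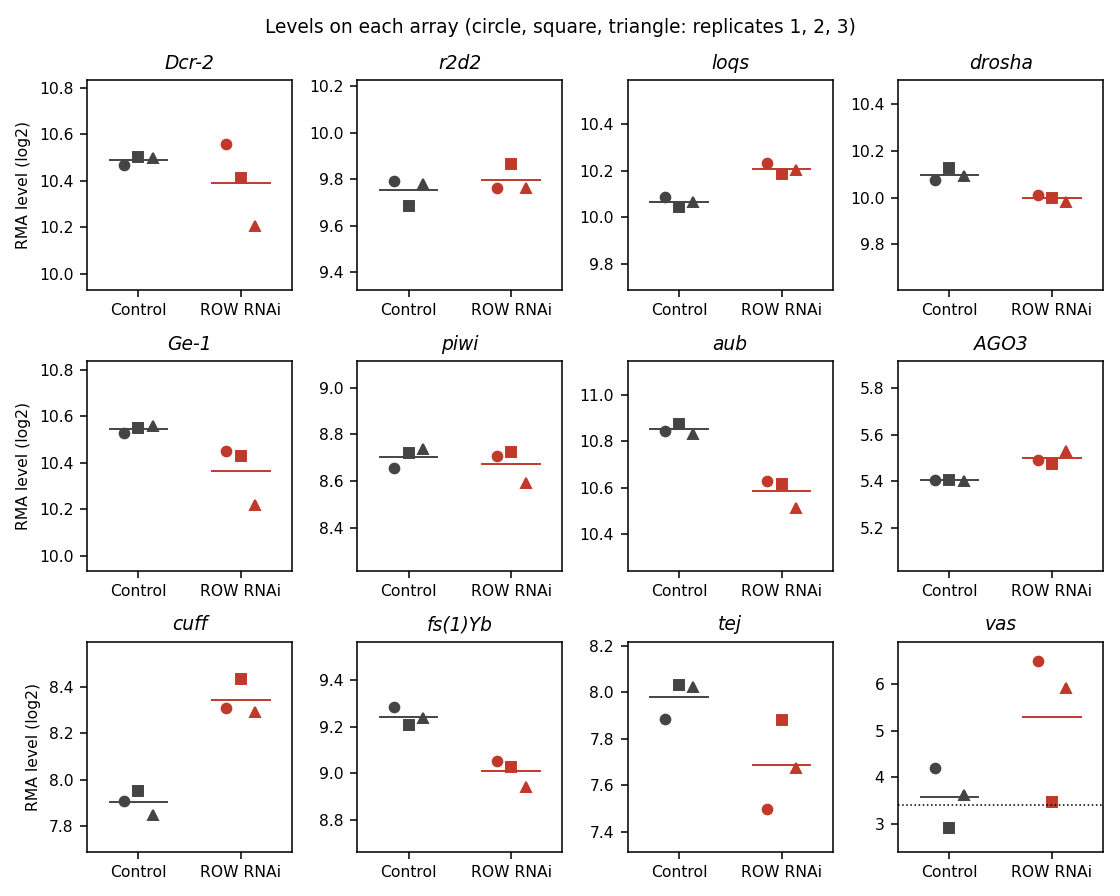
Log2 RMA level on each array for 12 genes of the 3 pathways, with replicates as circle, square and triangle and a line at the mean of each group; panels span 0.9 log2 units except vas, whose axis is wider and whose dotted line is the background level of 3.39. The groups are apart without overlap for loqs, drosha, Ge-1, aub, AGO3, cuff, fs(1)Yb and tej, and overlap for Dcr-2, r2d2, piwi and vas.

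The piRNA genes held both the gene that rose and the widest spread. All but vas and qin of the 20 measured were above background on every array, where 9022 of all 11982 genes read from their brightest probe set were. S2 cells are not germ cells, and a level above background was common to most genes. Besides cuff, 19 did not pass the test, with adjusted p from 0.11 to 0.87. Of the 20, 7 lay above 0 and 13 below, with a median log2 fold change of −0.07. The groups did not overlap in 10, with 2 higher and 8 lower, and over all tested probe sets they did not overlap in 21.4%, with 7.00% higher and 14.4% lower. Over the 35 genes of all 3 pathways they did not overlap in 14, or 40.0%, with 3 higher and 11 lower. Genes read from their brightest probe set are not a sample of all probe sets: over all 11982 genes read that way the share was 24.3%.

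cuff encodes Cutoff, which with Rhino and Deadlock lets germ cells transcribe piRNA clusters from both strands and protects those transcripts from being ended and processed like ordinary messages. It read 7.91, 7.95 and 7.85 in control and 8.31, 8.43 and 8.29 under ROW RNAi. The lowest ROW RNAi array lay well above the highest control. The log2 fold change was 0.44 (SE 0.06, limma adjusted p = 0.041), a 1.36-fold rise from 7.90 ± 0.05 to 8.34 ± 0.08 (SD, n = 3 each). Ranked by p-value it stood at place 195 of all tested probe sets, close to the threshold.

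The call on cuff was lost with 1 array fewer in 5 of 6 cases. Without control replicate 1, 2 or 3 the adjusted p was 0.19, 0.18 and 0.20, leaving out ROW RNAi replicate 1 or 3 gave 0.13 and 0.14, while leaving out ROW RNAi replicate 2 gave 0.046. The call was also lost with median centring of the arrays (log2 fold change 0.39, adjusted p = 0.24). The log2 fold change stayed between 0.39 and 0.47 under every alternative run, while the adjusted p ran from 0.0071 to 0.24. In the reference gene table cuff overlaps ERp60, which encodes a protein disulfide isomerase of the endoplasmic reticulum. ERp60 stood at 13.21 in control and 13.22 under ROW RNAi (log2 fold change 0.00, SE 0.05). No source used here says whether the array separates the strands of overlapping genes. CG13185, next to cuff on one side, had a log2 fold change of −0.05 (SE 0.06).

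Partners of Cutoff did not pass the test. del, which encodes Deadlock, read 10.71, 10.83 and 10.93 in control and 10.69, 10.74 and 10.45 under ROW RNAi. ROW RNAi replicate 3 was low and the groups overlapped (log2 fold change −0.19, SE 0.10, limma adjusted p = 0.45). rhi, which encodes the HP1-like protein Rhino, had a log2 fold change of −0.11 (SE 0.05, adjusted p = 0.36) without overlap between the groups. moon, whose product Moonshiner recruits a transcription factor to Rhino, had −0.36 (SE 0.19, adjusted p = 0.46), and Nxf3, which exports cluster transcripts, had −0.41 (SE 0.23, adjusted p = 0.47), with 0.14 on another probe set. Whether cuff differed from these partners was not tested.

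Of the Piwi clade, aub had the lowest log2 fold change and AGO3 the highest. aub, which encodes the cytoplasmic protein that slices transposon transcripts in germ cells, read 10.84, 10.88 and 10.83 in control and 10.63, 10.62 and 10.51 under ROW RNAi. All ROW RNAi arrays lay below the controls, at 83.2% of the control level (log2 fold change −0.26, SE 0.05, unadjusted p = 0.0027, limma adjusted p = 0.11). aub passed the threshold with trend and robust variance (adjusted p = 0.0074) and when only probe sets with a mean above the median were tested (0.026), and its adjusted p ran from 0.0074 to 0.39 over the alternatives.

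piwi, the nuclear member of the clade, read 8.65, 8.72 and 8.74 in control and 8.71, 8.72 and 8.59 under ROW RNAi. Its groups overlapped, with a log2 fold change of −0.03 (SE 0.06, adjusted p = 0.83 in limma). AGO3, the partner of Aubergine in the ping-pong cycle that amplifies piRNAs, read 5.41, 5.40 and 5.40 against 5.49, 5.47 and 5.53. The control arrays were within 0.01 of each other, and the log2 fold change of 0.09 (SE 0.04, adjusted p = 0.41) did not pass. aub and piwi are near neighbours in the reference gene table, with CG12253 next to both, and CG12253 had a log2 fold change of −0.13 (SE 0.08, adjusted p = 0.53). aub overlaps TTLL4A there, which stood at 6.68 in control and 7.26 under ROW RNAi (log2 fold change 0.58, SE 0.23, adjusted p = 0.35).

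fs(1)Yb encodes a Tudor and helicase-like protein that marks the bodies where somatic cells of the ovary process piRNA precursors. It read 9.29, 9.21 and 9.24 in control and 9.05, 9.03 and 8.94 under ROW RNAi, with no overlap. The log2 fold change was −0.23 (SE 0.05, unadjusted p = 0.0050, limma adjusted p = 0.15), and the adjusted p was 0.046 with trend and robust variance and 0.038 with only the brighter probe sets tested (range over the alternatives 0.038 to 0.39). vret, whose Tudor domain protein sits in the same bodies, had a log2 fold change of −0.14 (SE 0.06) and did not pass. In the reference gene table vret lies between Dcr-1 and HP1c, the gene of the chromatin protein with which ROW associates, which had a log2 fold change of 0.02.

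None of the other biogenesis factors passed the test. zuc, the endonuclease that cuts precursors at the mitochondrial surface, had a log2 fold change of −0.05, and armi, the helicase that feeds it, had 0.03. papi, a mitochondrial Tudor protein for 3′ end trimming, had −0.09 (SE 0.04) with no overlap. squ had −0.08, and shu, a co-chaperone for loading Piwi proteins, read 9.56, 9.61 and 9.55 against 9.71, 9.64 and 9.55, with a log2 fold change of 0.06 (SE 0.06).

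Among the nuage proteins, which gather around germ cell nuclei, tej had the lowest log2 fold change of the 35 genes. It read 7.89, 8.03 and 8.02 in control and 7.50, 7.88 and 7.68 under ROW RNAi. ROW RNAi replicate 2 came within 0.01 of the lowest control, so the groups barely separated (log2 fold change −0.29, SE 0.11, limma adjusted p = 0.33). spn-E, which encodes a helicase, read 8.65, 8.81 and 8.70 against 8.55, 8.64 and 8.42 (log2 fold change −0.18, SE 0.08). krimp stood at −0.06, tud at 0.04 and mael at 0.03. Panx, which encodes a nuclear silencing factor downstream of Piwi, had a log2 fold change of −0.14 (SE 0.05, unadjusted p = 0.036, adjusted p = 0.33). qin, read at 3.96 ± 0.21 in control and 3.78 ± 0.45 under ROW RNAi, was near background. Another qin probe set gave −0.43 (SE 0.12, adjusted p = 0.20) and was above background on 1 array.

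vas, the gene of the DEAD-box helicase Vasa that marks germ cells, had the widest spread of the 35 genes. It read 4.20, 2.91 and 3.62 in control and 6.50, 3.47 and 5.91 under ROW RNAi. ROW RNAi replicates 1 and 3 were high, ROW RNAi replicate 2 lay among the controls, and control replicate 2 was below background. The 6 arrays spanned 12.0-fold, a range that 29 of 18769 probe sets reached, vas included. The log2 fold change of 1.72 had an SE of 0.84 and did not pass (95% interval −0.36 to 3.79, limma adjusted p = 0.43). Without ROW RNAi replicate 2 it was 2.63 (adjusted p = 0.049), and without any other array the adjusted p was between 0.51 and 0.75.

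The order of the arrays by vas was their order on the first principal component of all tested probe sets, on which vas is 1 probe set. vig lies inside vas in the reference gene table and did not share this pattern, reading 11.24, 11.14 and 11.19 in control and 11.19, 11.06 and 11.11 under ROW RNAi. wwk, next to vas, stood at 3.53 in control and 3.99 under ROW RNAi (log2 fold change 0.46, SE 0.22, adjusted p = 0.42). A probe set shared by vas and wwk read 3.17, 3.68 and 3.32 against 3.98, 3.50 and 3.93.

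Markers of other cell types were read beside vas. Of 10 germline markers 7 were measured. Of these, 6 were above background on every array, where 9022 of all 11982 genes were, and otu on 1. Their log2 levels summed to 50.4 to 50.8 in control and 51.2 to 52.1 under ROW RNAi. orb and otu had the highest log2 fold changes, 0.82 and 0.58, while 3 of the 7 lay below 0. The sum is therefore not a measure of the set as a whole. None of the 7 passed the test, and 1 had an unadjusted p under 0.05, where 13.8% of all tested probe sets did. orb, which encodes an RNA binding protein of the oocyte, read 4.65, 4.46 and 4.60 against 5.66, 5.14 and 5.37 (log2 fold change 0.82, SE 0.14, limma adjusted p = 0.083). bam, which drives germ cells to differentiate, was at 10.34, 10.39 and 10.49 against 10.35, 10.36 and 10.19.

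All 6 testis markers were measured, with log2 levels that summed to 29.5 to 29.9 in control and 29.1 to 30.7 under ROW RNAi. Of these, aly and comr were below background on every array, and can was above it on 1. The 2 of 3 ovarian somatic markers measured, tj and slbo, summed to 6.39 to 6.65 in control and 6.10 to 6.59 under ROW RNAi, with slbo below background on every array. The 5 of 6 neuronal markers measured summed to 32.7 to 33.8 and 32.6 to 34.3. None of these markers passed the test. At an unadjusted p under 0.05 were 4 testis (1 higher, 3 lower), 2 neuronal (0 higher, 2 lower) and 0 ovarian somatic markers. Of all tested probe sets 13.8% were. The 4 testis markers included aly and comr. The part of such cells in the vas and cuff results was not tested.

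**Figure D3:**
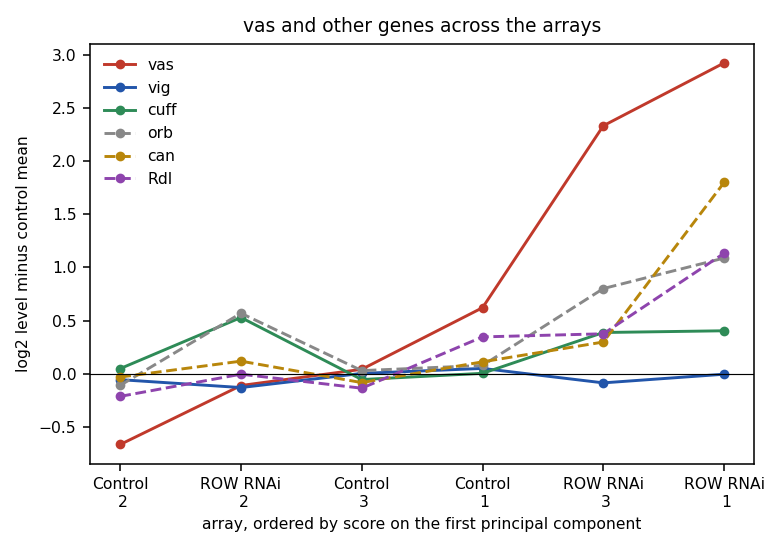
Log2 level minus the mean of the 3 control arrays for vas, vig and cuff (solid) and for markers (dashed). The markers are orb (germline), can (testis) and Rdl (neuronal), each with the highest log2 fold change of its list. Of the measured markers, 3 of 7 germline, 4 of 6 testis and 4 of 5 neuronal lay below 0. can was above background on 1 array. The arrays are placed in order of their score on the first principal component. vas climbs along that order to 2.92 above the control mean on ROW RNAi replicate 1, vig stays flat, and cuff is high on all 3 ROW RNAi arrays wherever they fall.

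The spread between arrays and the place of each array are given as a description, with no test. The SD was larger under ROW RNAi than in control for 30 of 35 genes, or 85.7%, against 67.2% of all tested probe sets. ROW RNAi replicate 3 lay below all controls for 21 of the 35 genes, replicate 2 for 17 and replicate 1 for 14, where 41.5%, 31.8% and 44.2% of all probe sets did. For siRNA genes alone the counts were 6, 3 and 0 of 11. On the side above all controls they were 7, 8 and 9 of the 35 genes for replicates 3, 2 and 1, where 27.4%, 26.7% and 27.1% of all probe sets were.

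Further genes of these pathways, from a list of 52 of which 46 were measured, gave 1 higher and 1 lower past the threshold, against 0.405% higher and 0.757% lower of all tested probe sets. Of the 46, 35 lay below 0, beside 58.3% of all tested probe sets, and the median log2 fold change was −0.03 in both. None passed among 10 genes of miRNA effectors and decay, which include gw, the scaffold that Argonaute-1 uses to repress messages (log2 fold change −0.02, SE 0.05). None passed among 9 genes of miRNA biogenesis and effector loading either, where Cbp80, a nuclear cap binding protein, had the lowest value (−0.17, SE 0.07, limma adjusted p = 0.35). These 2 groups held 0 and 1 genes at an unadjusted p under 0.05. All 46 genes together held 8, where 13.8% of all tested probe sets were under it. Of 14 further piRNA genes 13 lay below 0 and none passed, with 3 at an unadjusted p under 0.05 and adjusted p from 0.33 to 0.96. Among them SoYb and BoYb, relatives of fs(1)Yb, had log2 fold changes of −0.16 (SE 0.06) and −0.10 (SE 0.05), and wde, a cofactor of the histone methyltransferase used for silencing downstream of Piwi, had −0.15 (SE 0.06).

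Of 8 measured genes for uptake of double-stranded RNA, 1 rose, where 0.405% of all tested probe sets did. This was Sr-CI, a scavenger receptor gene, which read 10.44, 10.35 and 10.56 in control and 11.06, 11.09 and 11.05 under ROW RNAi (log2 fold change 0.62, SE 0.07, limma adjusted p = 0.022). eater, another scavenger receptor gene, read 10.56, 10.66 and 10.60 against 10.81, 10.73 and 10.88, with no overlap, but did not pass (log2 fold change 0.20, SE 0.06, adjusted p = 0.25). The endocytic genes Chc, for clathrin, and AP-2mu, for its adaptor, had log2 fold changes of −0.03 and −0.01, and the proton pump gene Vha16-1 had −0.02.

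Of 5 measured antiviral response genes, 1 fell, where 0.757% of all tested probe sets did. This was Nazo, which read 9.15, 9.21 and 9.15 in control and 8.64, 8.67 and 8.80 under ROW RNAi (log2 fold change −0.47, SE 0.06, limma adjusted p = 0.037). Unlike cuff, Nazo, Sr-CI and the marker He were not followed over the alternative runs. Whether these calls hold there was not tested. Vago, an antiviral gene whose induction needs Dicer-2, read 4.10, 4.17 and 4.12 against 3.44, 3.79 and 3.99, with no overlap (log2 fold change −0.39, SE 0.14, adjusted p = 0.32). Sting, of the cyclic dinucleotide pathway, had a log2 fold change of 0.03 (SE 0.05).

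**Figure D4:**
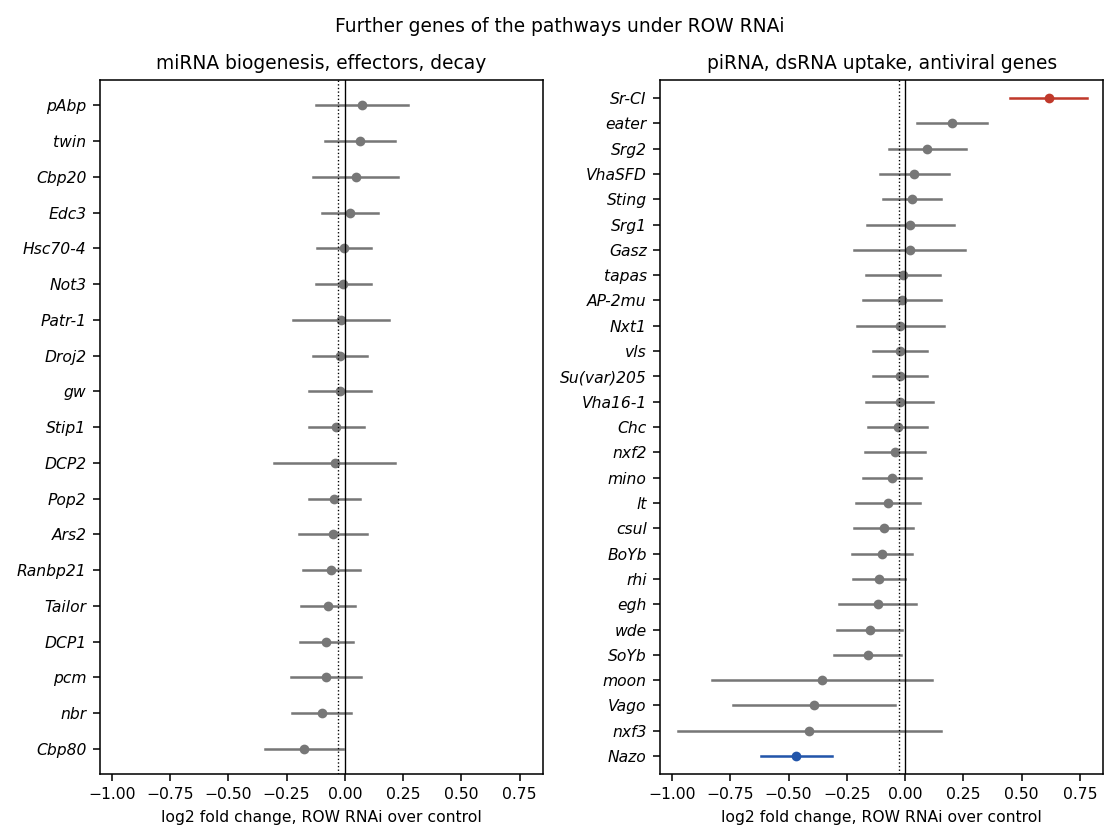
Log2 fold change of ROW RNAi over control with 95% limma intervals for 46 further genes, of the miRNA pathway (left) and of piRNA, double-stranded RNA (dsRNA) uptake and antiviral functions (right); red and blue mark an adjusted p below 0.05, higher and lower, and the dotted line is the median of all tested probe sets. Sr-CI is the red point and Nazo the blue one, and the other 44 genes are grey.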

How the data were processed

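The deposited values are log2 expression, 1 per probe set and array, made by the authors with RMA per the submitters' processing notes (version not stated). RMA brings the distributions of arrays closer to each other, which can hide a shift common to most transcripts. The array medians still ran from 4.86 (ROW RNAi replicate 2) to 5.01 (ROW RNAi replicate 1). The arrays' number limits the precision.

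Of 18952 probe sets, 183 Affymetrix controls were left out and 18769 tested, with no filter on dim ones. Symbols from the platform annotation were brought up to date through gene IDs in the reference gene table (Release 6 plus ISO1 MT): 13647 probe sets had 1 symbol (13544 matched by ID), 402 several and 4720 none. No build is stated for the array annotation, so the table served for names and neighbours.

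Groups were compared with limma 3.58.1 in R 4.3.3 (two-sided, Benjamini-Hochberg over all tested probe sets, threshold 0.05). In simulated data for this comparison over 18769 probe sets it recovered 52%, 76%, 98% and 98% of changes of 0.585, 1, 2 and 3 on the log2 scale. It also called 9 unchanged probe sets. The simulated noise was independent between probe sets and alike in both groups, and no change under 0.585 was simulated. These shares therefore do not carry over to the smaller changes of most listed genes, or to arrays with unequal spread. Levels are not compared between genes. Every listed gene was to be accounted for, with each array given for core genes, genes past the threshold and the 5 largest changes each way. Further pathway genes named without passing the threshold, and neighbours, were picked with their values seen. Genes and lists were chosen with earlier results of these data known. Figures used matplotlib 3.10.9.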

Additional observations from a re-analysis of the deposited data

How the results depend on the processing

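Alternatives were median centring, a further quantile normalization, probe sets above the median mean, trend and robust variance, the average over all probe sets of a gene, the replicate number as a block and leaving out each array; background correction could not be varied from RMA values. Of 218 changed probe sets, median centring left 107, while 575 passed among probe sets above the median mean (fewer tested) and 558 with trend and robust variance. Leaving out 1 array gave 24 to 517: it gave 26, 24 and 27 for control replicates 1, 2 and 3 and 64, 517 and 53 for ROW RNAi replicates 1, 2 and 3. Of the 35 genes, 1 passed in limma and 0 with median centring (3 at an unadjusted p under 0.05). With trend and robust variance 3 passed (cuff, aub and fs(1)Yb). The same 3 passed among brighter probe sets, where 33 of the 35 genes were tested, without vas and qin. Without 1 array 0 to 2 passed. These were cuff and vas without ROW RNAi replicate 2, and otherwise 0, with 3 to 6 at an unadjusted p under 0.05. Apart from fewer probe sets or arrays, the cause was not tested.

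Genes not past the threshold could change sign. With median centring 8 of 35 did, among them blanks (−0.030), trsn (−0.034) and Fmr1 (−0.019; −0.047 with the mean of its probe sets). qin lay between −0.34 and 0.078 with 1 array left out, above 0 without ROW RNAi replicate 1. Genes without overlap between groups numbered 11 to 19 over the alternatives, against 14.

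With replicate number added as a block, 0 probe sets passed in limma (2924 at an unadjusted p under 0.05) and 0 of the 35 genes (5 at an unadjusted p under 0.05; cuff 0.44, adjusted p = 0.13), and the row estimate of −1.58 had an adjusted p of 0.056, where all alternatives together spanned 1.3e-06 to 0.056. Arrays with the same number had deviations from their group means that correlated at 0.48, 0.55 and −0.04. In both groups replicate 1 was highest and replicate 2 lowest on the first principal component, in array median and for vas. Whether arrays with the same number share a batch was not tested, and no label gives the numbers a shared culture or day. The pairing was therefore not used in the main comparison.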
